A study of Mus musculus with 6 samples.

Results

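Arginine methylation is laid down by the protein arginine methyltransferases (PRMTs), which move methyl groups from S-adenosylmethionine onto arginines of histones, splicing factors and other RNA-binding proteins. Type I enzymes make asymmetric dimethylarginine, the type II enzyme PRMT5 makes the symmetric form, and the type III enzyme PRMT7 makes monomethylarginine only. CARM1, also called PRMT4, is a type I enzyme that nuclear receptors recruit through p160 coactivators, and it methylates the tail of histone H3, the acetyltransferases p300 and CBP and the chromatin remodelling subunit BAF155. In mouse embryonic stem cells CARM1 and PRMT5 are both known for roles in pluripotency. The genes described here were taken by name from the expression table, and all 8 were found, Carm1, Prmt1, Prmt2, Prmt3, Prmt5, Prmt6, Prmt7 and Prmt8, among 20460 genes. No measured value entered their choice, but both the choice and the lists of related genes used below were made with earlier results of these data known.

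RNA was sequenced from J1 cells, an embryonic stem cell line of mouse strain 129S4/SvJae, kept on gelatin with the cytokine LIF in every group. The 6 libraries came from a line carrying a short hairpin RNA (shRNA) against Carm1, a line carrying a scramble shRNA, and wild-type cells, each treated for 48 h with 1 µM retinoic acid (RA) or with the ethanol vehicle. Each line and treatment was sampled by 1 library, and the labels name 1 line for each shRNA, so a line effect and an shRNA effect cannot be told apart. The labels describe no separate cultures within a group, and the p-values reflect how far these 6 libraries spread and nothing wider. The values are FPKM, read counts scaled to transcript length and to library depth, which allow levels of different genes to be set side by side.

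The deposited values summed to between 505266 and 537592 FPKM per library, and 10630 to 11518 genes reached 1 FPKM. The most frequent step among the lowest values of single-transcript genes, taken as 1 read, put the depth at about 25000000 to 34500000 reads per library. All 8 listed embryonic stem cell markers, Pou5f1 and Nanog among them, reached 1 FPKM, and their summed level was 2790 to 4274 FPKM with RA and 5111 to 5413 FPKM with vehicle. Nanog did not follow the sum: it had 594.8, 369.6 and 433.8 FPKM with RA and 455.9, 415.7 and 431.4 FPKM with vehicle in the Carm1 shRNA, scramble and wild-type lines, and Dppa5a was also higher with RA in the Carm1 shRNA line. The 8 extraembryonic endoderm markers summed to 233 to 311 FPKM with RA and 105 to 124 FPKM with vehicle. Neural markers (7 genes) summed to 101 to 139 FPKM with RA and 127 to 146 FPKM with vehicle, with Neurog2 listed at 0 in every library. The neural sum is mostly Tubb3, which was 117.1, 72.01 and 65.9 FPKM with RA and 127.9, 108.1 and 122.3 FPKM with vehicle; Elavl3 was lower with RA too, while Sox1, Pax6, Map2 and Nes were higher with RA in all 3 lines. Fibroblast and feeder markers (8 genes) summed to 4.95 to 8.47 FPKM with RA and 1.66 to 2.21 FPKM with vehicle, with Postn at 0 throughout and 4 of the 8 reaching 1 FPKM in any library. The 4 mesendoderm and mesoderm markers summed to 1.97 to 5.13 FPKM with RA and 1.24 to 1.56 FPKM with vehicle. With RA that sum was mostly Meox1, at 1.21, 3.99 and 4.39 FPKM in the Carm1 shRNA, scramble and wild-type lines. Mixl1 was lower with RA in all 3 lines, T in the Carm1 shRNA line only, and Kdr was higher in all 3. T reached at most 0.177 FPKM and Kdr at most 0.126 FPKM in any library, too low for a direction to be relied on. Among the fibroblast and feeder markers Thy1 was lower with RA in all 3 lines. Col1a1, Col1a2, Col3a1, Pdgfra and Dcn were higher in all 3, with Col3a1 at most 0.0793 FPKM in any library. These sums move with RA in every line, their part in the RA responses below was not tested, and in bulk RNA fewer cells of a type and less RNA per cell cannot be told apart.

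The family was dominated by Prmt1, the main producer of asymmetric dimethylarginine in most cells. Its level was 339.6, 349 and 323 FPKM with RA and 396, 389.9 and 359.5 FPKM with vehicle in the Carm1 shRNA, scramble and wild-type lines. At most 1.02% of genes stood above it in any library. Prmt5 came next (mean over the 6 libraries 94.4 ± 22.8 FPKM, SD), then Prmt7 (62.3 ± 12.8 FPKM), Prmt3 (33.1 ± 7.41 FPKM), Carm1 (24.6 ± 13.5 FPKM), Prmt6 (17.5 ± 2.46 FPKM), Prmt2 (8.76 ± 5.02 FPKM) and Prmt8 (6.38 ± 3.25 FPKM). These SDs hold both the RA response and the differences between lines. Prmt1, Prmt5 and Prmt7 each stood above the next gene in 6 of 6 libraries, and so did Prmt6 above Prmt2. The order of Prmt3, Carm1 and Prmt6 was not fixed: Prmt3 was above Carm1 in 4 libraries, and Carm1 was above Prmt6 in the 4 libraries without the Carm1 shRNA. Prmt2 was above Prmt8 in 5 of 6 libraries, so these neighbours overlap.

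**Figure D1:**
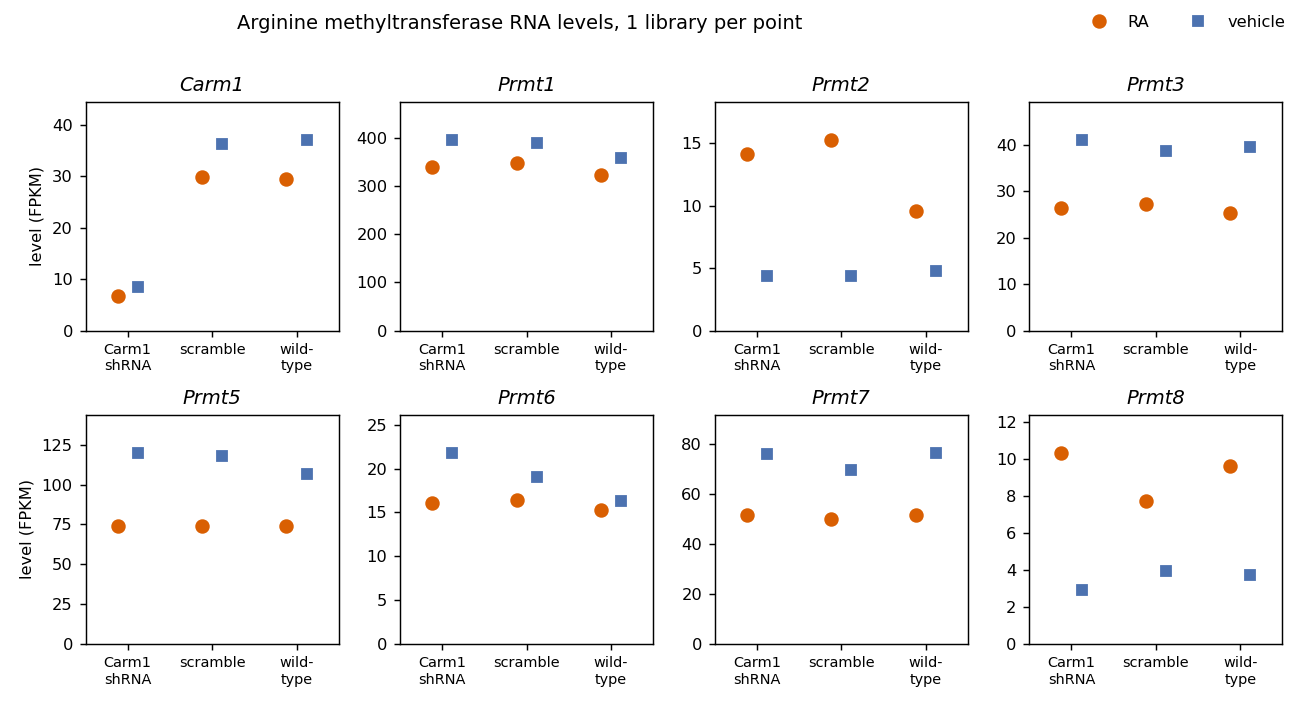
Level of each of the 8 genes in FPKM (y axis, starting at 0, with its own scale per gene) in the Carm1 shRNA, scramble and wild-type lines (x axis); each point is 1 library, circles with RA and squares with vehicle. Carm1 is low in both libraries of the Carm1 shRNA line (6.73 and 8.49 FPKM), while Prmt2 and Prmt8 are higher with RA in every line.

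Set against the summed level of the 8 genes, Prmt1 made up 63.1%, 61.3% and 60.1% with RA and 59.1%, 57.4% and 55.9% with vehicle in the Carm1 shRNA, scramble and wild-type lines. Carm1 made up 1.25% with RA and 1.27% with vehicle in Carm1 shRNA cells. Scramble cells had 5.25% and 5.32%, and wild-type cells 5.48% and 5.74%. The summed level itself was 538, 569 and 537 FPKM with RA and 669.8, 679.8 and 644 FPKM with vehicle. With Carm1 left out, the other 7 genes summed to 532, 539 and 508 FPKM with RA and 661, 644 and 607 FPKM with vehicle. The RA libraries were lower than the vehicle libraries in all 3 lines on both sums. Type I genes gave 413, 445 and 412 FPKM of the total with RA and 474.5, 492 and 461 FPKM with vehicle.

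**Figure D2:**
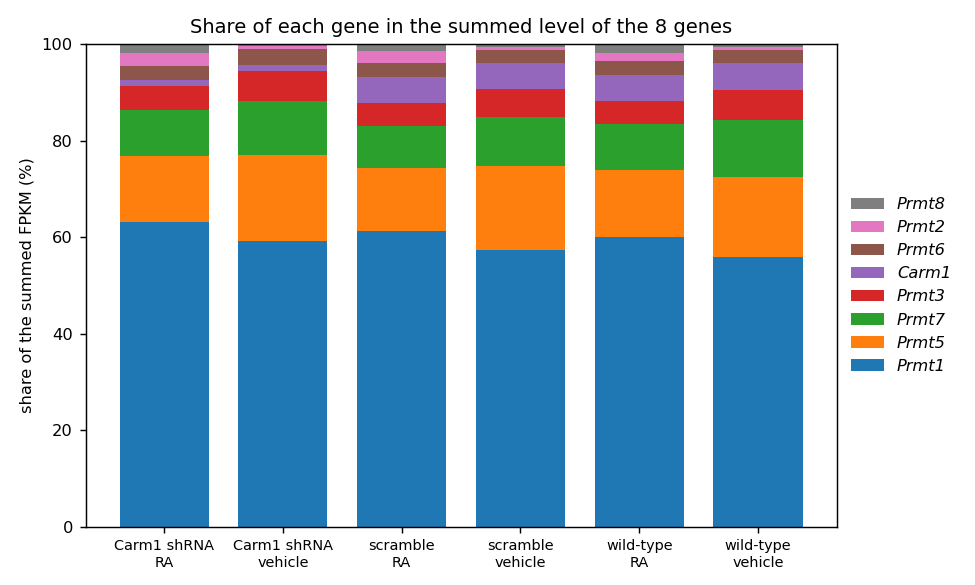
Share of each gene in the summed FPKM of the 8 genes (y axis, percent) in each of the 6 libraries (x axis, line and treatment). Prmt1 takes 55.9% to 63.1% of every bar, and the Carm1 segment shrinks to 1.25% and 1.27% in the Carm1 shRNA line.

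Carm1 RNA, the target of the shRNA, was at 22.6% to 23.5% of the scramble level whether or not RA was present. Carm1 (chr9:21351338-21393909, build mm9) measured 6.73 FPKM with RA and 8.49 FPKM with vehicle in Carm1 shRNA cells. In the same order of treatment, scramble cells had 29.9 and 36.1 FPKM and wild-type cells 29.5 and 37.0 FPKM. The scramble level was 101.3% of the wild-type level with RA and 97.8% with vehicle, and no control library came near the Carm1 shRNA libraries. The estimated reads behind these values were 722 and 821 in the Carm1 shRNA libraries and 2910 to 3790 in the others, which puts the counting error of each value at 3.72% or less. The Carm1 shRNA line differed from the mean of both control lines by -1.99 ± 0.06 (SE) on the log2(FPKM + 1) scale (limma with Benjamini-Hochberg adjustment over 11227 genes, adjusted p = 0.00174; lower in 2 of 2 treatments). Against the scramble line alone the difference was -1.98 ± 0.07 (limma adjusted p = 0.0106). Carm1 was the sole member of 8 past the threshold of 0.05 in either contrast; over all genes the share called lower was 0.276% against both control lines and 0.0178% against the scramble line. It was also the sole member at least 2-fold from both control lines within a treatment, a mark that 0.312% of genes passed with RA and 0.169% with vehicle. No member was that far from both other lines in scramble cells, where 0.0713% of genes with RA and 0.0178% with vehicle were, or in wild-type cells, where 0.864% and 0.606% were.

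The Carm1 difference kept its size under the alternatives that ended its call, between -2.01 and -1.96. Without the low-value filter the adjusted p was 0.0737 against both control lines and 0.106 against the scramble line (limma). Leaving out either scramble library gave adjusted p = 0.055 and adjusted p = 0.057 for the difference from both control lines. Against the scramble line alone, leaving out any of the 4 libraries compared ended the call.

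No other member stood apart in the Carm1 shRNA line, so a rise of another methyltransferase RNA was not detected. Over both treatments the difference from both control lines was 0.05 ± 0.07 for Prmt1, 0.08 ± 0.16 for Prmt2, 0.03 ± 0.07 for Prmt3, 0.04 ± 0.07 for Prmt5, 0.04 ± 0.07 for Prmt7 and -0.03 ± 0.15 for Prmt8 (log2, SE; limma adjusted p between 0.729 and 0.924). Prmt6, which methylates another arginine of histone H3, had the largest of these differences, 0.16 ± 0.09 (limma adjusted p = 0.408). None of the 7 was called higher, against 0.24% of all genes, and none had an unadjusted p under 0.05. The 95% confidence intervals, not adjusted for the number of genes, bound the difference averaged over both treatments. They ran from 92.2% to 116% of the control level for Prmt1, from 90.6% to 117% for Prmt5, from 95.3% to 130% for Prmt6, from 79.7% to 140% for Prmt2 and from 75.3% to 127% for Prmt8, on the FPKM + 1 scale. A smaller rise in the abundant members, or a moderate one in the rarer members, is within these limits. The intervals do not bound a difference within a single treatment. Prmt8 in the Carm1 shRNA line, for example, was at 74.4% of the scramble level with vehicle and 133.5% with RA.

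By library, Prmt6 measured 21.7 FPKM in vehicle-treated Carm1 shRNA cells, against 19.1 FPKM in scramble cells and 16.3 FPKM in wild-type cells. With RA the Carm1 shRNA cells had 16.1 FPKM, and the scramble and wild-type cells 16.4 and 15.2 FPKM. The Carm1 shRNA value was thus above both controls with vehicle and between them with RA. Across the 7 other members and both treatments, the ratio of the Carm1 shRNA line to the scramble line ran from 0.744 to 1.34 and was above 1 in 8 of 14 values. The ratio of the scramble line to wild-type cells, with no Carm1 shRNA on either side, ran from 0.803 to 1.59 and was above 1 in 9 of 14. The Carm1 shRNA value lay above both controls for 2 of the 7 genes with RA (28.0% of all genes did) and for 4 of the 7 with vehicle (38.9% of all genes did). Between the scramble and wild-type lines 0 of 8 members passed (limma; 1.79% of genes were called, 0.748% higher and 1.04% lower, and no member had an unadjusted p under 0.05), the widest difference being 0.26 ± 0.18 for Prmt2, which passed at 0.59 (adjusted p = 0.049) without the wild-type vehicle library.

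**Figure D3:**
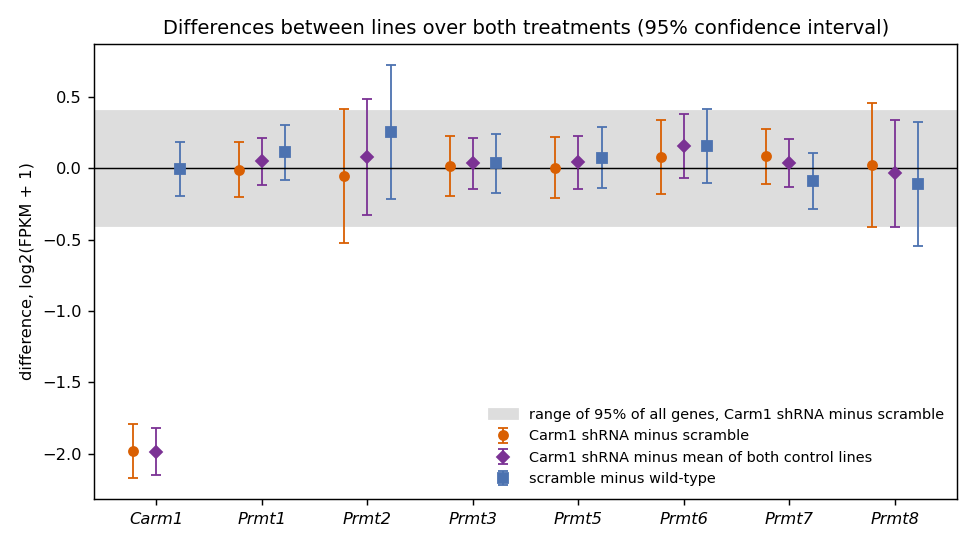
Difference between lines over both treatments on the log2(FPKM + 1) scale (y axis) for each of the 8 genes (x axis); points are limma estimates and bars their 95% confidence intervals. The grey band holds 95% of all 11227 genes for the Carm1 shRNA minus scramble difference (-0.40 to 0.40). Carm1 lies at -1.98 and -1.99 for both contrasts of the Carm1 shRNA line, and the intervals of the other 7 genes all include 0.

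Yipf2, which codes for a Golgi membrane protein, is the only gene of the table whose span overlaps that of a member. It lies at chr9:21393126-21397275 (mm9) and shares 784 bases with the end of the Carm1 span. Yipf2 measured 13.7 FPKM with RA and 10.1 FPKM with vehicle in Carm1 shRNA cells, while scramble cells had 26.2 and 25.9 FPKM and wild-type cells 24.5 and 25.4 FPKM. The Carm1 shRNA libraries were the lowest under each treatment. It was lower than in both control lines by -1.05 ± 0.11 (log2, SE; limma adjusted p = 0.0467), a call that ended at a pseudocount of 0.1 (adjusted p = 0.0778) and with all genes tested (adjusted p = 0.226). Leaving out any library of the Carm1 shRNA or scramble line ended it too (adjusted p between 0.0954 and 0.204). The sources used here do not say whether the libraries kept strand, so reads of the shared bases cannot be told apart, and their part in the Yipf2 values was not tested. Of the other 6 listed neighbours of Carm1, Smarca4 among them, 0 were called between lines. With RA, Dnm2 (0.58 ± 0.07) and Tmed1 (0.33 ± 0.07) rose and Spc24 (-0.42 ± 0.10) fell. Median-of-ratios scaling ended the Tmed1 call (adjusted p = 0.0704), and the Tmed1 and Spc24 calls ended without the scramble or without the Carm1 shRNA line (adjusted p between 0.0573 and 0.068).

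RA split the family: the 2 least abundant members rose, and 4 of the other 6 fell. With the line as block, Prmt2 and Prmt8 were called higher and Carm1, Prmt3, Prmt5 and Prmt7 lower, which is 2 and 4 of 8 members, against 42.9% of all genes called higher and 20.7% lower. Calls of either direction covered 63.6% of all genes, so being called is not particular to these genes. The share of all genes whose RA and vehicle libraries do not overlap was not counted. All genes together had a median RA change of 0.14 (log2), and of 0.0015 after median-of-ratios scaling. Under that scaling the 2 rises were kept and all 6 of the other members were called lower (Prmt1 by -0.34 and Prmt6 by -0.39). Of all 11227 genes, 3662 were called higher and 3631 lower under it.

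Prmt2, a type I enzyme with an SH3 domain that acts as a nuclear receptor coactivator, had the largest estimated rise over the lines. By line, Prmt8 rose further than Prmt2 in the Carm1 shRNA line (3.52-fold) and in wild-type cells (2.58-fold). Prmt2 (chr10:75669967-75700610, mm9) was 14.1, 15.3 and 9.60 FPKM with RA in the Carm1 shRNA, scramble and wild-type lines, against 4.40, 4.38 and 4.77 FPKM with vehicle. Every RA library was above every vehicle library, and the wild-type line rose least (2.01-fold, against 3.21-fold in the Carm1 shRNA and 3.48-fold in the scramble line). The change was 1.32 ± 0.15 (log2, SE; limma adjusted p = 0.00169), and 5.59% of genes changed by more.

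Prmt8, the closest relative of Prmt1 and known from the brain, where its protein is held at the plasma membrane, was the other member that rose. Prmt8 (chr6:127639027-127719177) was 10.3, 7.73 and 9.63 FPKM with RA, against 2.93, 3.94 and 3.74 FPKM with vehicle, in the same order of lines. The treatments did not overlap, and the rise was steepest in the Carm1 shRNA line (3.52-fold, against 1.96-fold in the scramble and 2.58-fold in the wild-type line). The change over the lines was 1.17 ± 0.14 (limma adjusted p = 0.00188), and the call was lost when every gene was tested (adjusted p = 0.0511). With 240 to 936 estimated reads, Prmt8 carried a counting error of up to 6.46% per library, and Prmt2 up to 6.67%.

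Prmt5, which with its partner WDR77 methylates the Sm proteins of the spliceosome, had the largest estimated fall over the lines. In wild-type cells Prmt3 (to 63.9% of the vehicle level) and Prmt7 (to 67.5%) fell further than Prmt5 (to 69.4%). Prmt5 (chr14:55126019-55136307) was 73.8, 74.2 and 74.0 FPKM with RA, against 119.6, 118 and 107 FPKM with vehicle, in the Carm1 shRNA, scramble and wild-type lines. The RA values were nearly equal across the lines and far below every vehicle value (log2 -0.63 ± 0.07, limma adjusted p = 0.00152).

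Prmt3, a cytosolic enzyme whose main substrate is a protein of the small ribosomal subunit, was 26.4, 27.4 and 25.3 FPKM with RA against 41.0, 38.7 and 39.6 FPKM with vehicle (log2 -0.58 ± 0.07, limma adjusted p = 0.00175). Prmt7 was 51.4, 49.7 and 51.3 FPKM with RA against 75.7, 69.4 and 76.1 FPKM with vehicle (log2 -0.53 ± 0.06, limma adjusted p = 0.00186). For both genes every RA library was below every vehicle library. Prmt3 and Prmt7 are at chr7:57033728-57113635 and chr8:108734954-108775594 (mm9).

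Carm1 itself was lower with RA by nearly the same proportion in each line, to 79.3%, 82.6% and 79.7% of the vehicle level in the Carm1 shRNA, scramble and wild-type lines (log2 -0.29 ± 0.06, limma adjusted p = 0.01). This call ended without the scramble line (adjusted p = 0.0501) and without the Carm1 shRNA line (adjusted p = 0.0546). Prmt1 (chr7:52232125-52241790) stood at 85.8%, 89.4% and 89.8% of its vehicle level and did not pass (log2 -0.18 ± 0.06, limma adjusted p = 0.0507). Its RA values were all below its vehicle values, a pattern whose share among all genes was not counted. Prmt6 (chr3:110049028-110053916) stood at 74.0%, 85.7% and 93.2% (log2 -0.24 ± 0.08, limma adjusted p = 0.0517), and its treatments overlapped. Without the wild-type line Prmt6 passed at -0.31 (limma adjusted p = 0.0291). Both genes also passed with limma's trend, at a pseudocount of 5 and among genes averaging at least 5 FPKM (adjusted p between 0.00694 and 0.0405). After quantile normalization Prmt6 passed at -0.41 (limma adjusted p = 0.00986), but Prmt1 shrank to -0.08 (adjusted p = 0.302). Prmt1 did not pass on leaving out any of the lines (limma adjusted p between 0.0914 and 0.217). Nor did Prmt6 without the scramble line (adjusted p = 0.145) or the Carm1 shRNA line (adjusted p = 0.242).

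**Figure D4:**
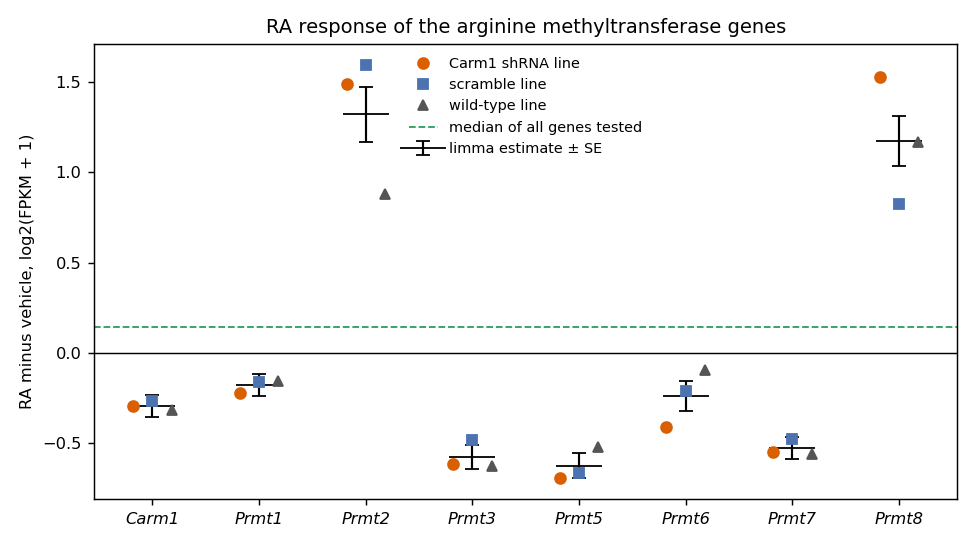
RA minus vehicle on the log2(FPKM + 1) scale (y axis) for each of the 8 genes (x axis), 1 point per line; the black bar is the limma estimate over the 3 lines with its SE, and the dashed line the median of all genes tested (0.14). Prmt2 and Prmt8 lie near 1.32 and 1.17, and the other 6 genes are below 0 in every line.

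The difference in RA response between the Carm1 shRNA line and the control lines was tested directly. None of the 8 members passed, and 0 of 11227 genes did (limma, 0% called; 409 genes had an unadjusted p under 0.05, and 1 gene passed with limma's trend). Prmt8 came nearest, with responses of 1.53 in the Carm1 shRNA line against 0.82 and 1.17 in the scramble and wild-type lines, a difference of 0.53 ± 0.21 (log2; limma unadjusted p = 0.0521, adjusted p = 1.00). Of all genes 4.13% had a larger difference. For Prmt2 the difference was 0.25 ± 0.32, with a 95% interval from -0.57 to 1.07. For Carm1 it was -0.0027 ± 0.17 and for Prmt6 -0.26 ± 0.17. The fit had 1 residual degree of freedom before moderation. Its 95% intervals, not adjusted for the number of genes, ran from -0.43 to 0.42 for Carm1 and from -0.54 to 0.35 for Prmt5. For Prmt8 the interval ran from -0.0069 to 1.07. Differences within these intervals could have gone unseen, and with 0 of 11227 genes called, larger ones could have too.

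The promoters of the members that rose and fell furthest are shown because RA acts through receptors that bind paired half-sites in DNA. RefSeq promoter windows (build GRCm38.p6, 250 bases before to 50 after the start) were found for 7 of the 8 members, and Carm1 had no entry. Capitals mark the half-site AGGTCA or its variants GGGTCA or AGTTCA or GGTTCA, the E-box CACGTG bound by Myc family proteins, and the GC box GGGCGG bound by Sp1, each on either strand. The windows lie at chr10:76237816-76238115 for Prmt2, chr6:127769106-127769405 for Prmt8 and chr14:54517421-54517720 for Prmt5, all on the minus strand, and at chr7:49778108-49778407 on the plus strand for Prmt3. Each is printed 5′ to 3′ in the direction of its gene.
Prmt2: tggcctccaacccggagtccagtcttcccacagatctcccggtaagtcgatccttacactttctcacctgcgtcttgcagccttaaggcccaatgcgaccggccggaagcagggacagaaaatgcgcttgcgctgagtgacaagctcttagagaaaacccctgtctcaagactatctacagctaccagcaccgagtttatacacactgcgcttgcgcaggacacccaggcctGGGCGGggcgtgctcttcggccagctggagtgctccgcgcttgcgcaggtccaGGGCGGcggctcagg
Prmt8: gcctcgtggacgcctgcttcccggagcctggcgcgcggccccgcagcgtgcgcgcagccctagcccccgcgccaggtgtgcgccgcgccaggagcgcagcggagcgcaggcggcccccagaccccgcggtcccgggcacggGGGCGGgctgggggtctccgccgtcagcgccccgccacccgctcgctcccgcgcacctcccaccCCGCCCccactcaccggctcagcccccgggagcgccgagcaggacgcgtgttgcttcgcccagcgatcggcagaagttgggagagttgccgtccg
Prmt5: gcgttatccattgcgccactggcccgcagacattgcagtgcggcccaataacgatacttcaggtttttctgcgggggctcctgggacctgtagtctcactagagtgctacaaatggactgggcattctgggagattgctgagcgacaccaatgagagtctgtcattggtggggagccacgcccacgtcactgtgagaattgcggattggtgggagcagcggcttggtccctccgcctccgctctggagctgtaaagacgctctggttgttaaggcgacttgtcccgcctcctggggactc
Prmt3: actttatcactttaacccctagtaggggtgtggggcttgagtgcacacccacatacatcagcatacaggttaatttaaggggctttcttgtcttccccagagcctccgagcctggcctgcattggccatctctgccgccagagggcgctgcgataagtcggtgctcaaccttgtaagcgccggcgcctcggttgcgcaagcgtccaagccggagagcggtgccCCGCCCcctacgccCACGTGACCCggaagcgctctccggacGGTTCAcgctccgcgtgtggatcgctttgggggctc

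No half-site stood in the windows of Prmt2 and Prmt8, the members that rose, nor in those of Prmt1, Prmt5 and Prmt6. The Prmt3 window held 2, of which the first (TGACCC on this strand) overlaps the E-box, and the Prmt7 window held 1. At least 1 half-site is present in 43.4% of 27025 promoter windows. Any pairing of these 4 half-sites in the same direction with 1, 2 or 5 bases between them, the spacings that retinoid receptors bind, was in none of the 7 windows and in 0.226%, 0.263% and 0.0962% of all windows. The E-box was in the windows of Prmt1 and Prmt3 and in 7.24% of all windows. The GC box was in 5 of the 7 windows, with 2 each in Prmt2 and Prmt8, and in 35.9% of all. The 7 windows held 16 to 44 CpG pairs, against a median of 7 over all windows, and Prmt8 had the most (79.0% GC, with 1.88% of promoters holding more CpG pairs). Prmt8 has a second window 4 bases away with the same matches. These matches describe the letters of the windows only.

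The genes whose pattern over the 6 libraries was most like that of Carm1 were Sdc4, Dmrt1, Shcbp1, Slc9b1 and Eda2r, with Pearson r from 0.946 to 0.993 on the log2(FPKM + 1) scale. Sdc4, a cell surface proteoglycan gene, measured 10.2, 19.4 and 18.7 FPKM with RA and 10.7, 22.05 and 19.9 FPKM with vehicle in the Carm1 shRNA, scramble and wild-type lines. All 5 genes were lowest in the 2 libraries of the Carm1 shRNA line. Aard, Slc2a3, Rab7l1, Dcaf12l1 and Man2a1 were most like Prmt8 (r from 0.990 to 0.996). Slc2a3, the neuronal-type glucose transporter, was 820.2, 638 and 757 FPKM with RA against 404, 456 and 453 FPKM with vehicle, with the scramble line lowest with RA as for Prmt8. Slc7a4, Irx3, Synpo, Slc19a3 and Plod1 were most like Prmt2 (r from 0.999 to 1.00). Irx3, a homeobox gene, was 6.10, 7.49 and 2.60 FPKM with RA and at most 0.125 FPKM with vehicle, with the wild-type line lowest as for Prmt2. These r are the highest among 2545 genes that ranged over at least 1 log2 unit and describe 6 libraries that differ mainly by RA and by line.

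Genes that work with the methyltransferases were described from lists chosen with earlier results known. Their counts are set against 42.9% of all genes called higher and 20.7% lower with RA. Of 11227 genes, median-of-ratios scaling called 3662 higher and 3631 lower, and quantile normalization 2992 higher and 3847 lower. Of 4 partners of PRMT5, 2 fell and 0 rose, with a median change of -0.22, against 0.14 for all genes. The Sm protein chaperone gene Clns1a fell by 0.32 ± 0.06 and Coprs, whose product guides PRMT5 to histones, fell by 0.30 ± 0.07 (limma adjusted p = 0.00894 and 0.0122). Wdr77 did not pass (-0.13 ± 0.07, adjusted p = 0.128). Without the scramble line both calls ended (adjusted p = 0.0572 and 0.0728), and all 4 partners were called lower after median-of-ratios scaling. Of 8 listed PRMT5 substrates 6 fell and 1 rose, and 4 fell after quantile normalization, without the scramble line or without the Carm1 shRNA line. The splicing genes Snrpn (-0.60 ± 0.07) and Snrpd3 (-0.53 ± 0.07) and Trp53 (-0.46 ± 0.09) fell. Piwil2, which acts with small RNAs in germ cells, rose by 0.31 ± 0.10, a call that ended after median-of-ratios scaling and turned to -0.12 after quantile normalization. It also ended without the wild-type line (adjusted p = 0.133) and without the Carm1 shRNA line (adjusted p = 0.178).

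Of 14 PRMT1 substrates 9 fell and 1 rose, with a median of -0.29. The nucleolar genes Ncl (-0.70 ± 0.07) and Fbl (-0.54 ± 0.07) and Hnrnpa1 (-0.42 ± 0.10) fell, and the DNA repair gene Trp53bp1 rose by 0.47 ± 0.10. The Trp53bp1 call ended after quantile normalization (adjusted p = 0.0592), and the Hnrnpa1 call without the scramble line (adjusted p = 0.0559) or the Carm1 shRNA line (adjusted p = 0.0533). The count of falls dropped to 3 without the scramble line and to 2 without the Carm1 shRNA line. Of 5 genes that regulate PRMT activity, Nr4a1 (-0.96 ± 0.11) and Btg2 (-0.42 ± 0.10) fell and Epb4.1l3 rose by 0.79 ± 0.07. The Btg2 call ended on leaving out the scramble line (adjusted p = 0.0996) or the Carm1 shRNA line (adjusted p = 0.0788), and 3 of the 5 were higher without the wild-type line.

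Of 19 CARM1 substrates and coactivator partners 4 rose and 9 fell, and the list's median was -0.08 (-0.23 after median-of-ratios scaling). The counts were 2 and 7 after quantile normalization, 2 and 5 with the scramble line left out and 3 and 6 with the Carm1 shRNA line left out. The remodelling subunit gene Smarcc2 rose by 0.79 ± 0.09, the p160 coactivator gene Ncoa2 by 0.74 ± 0.08 and the Mediator subunit gene Med12 by 0.37 ± 0.08. The Med12 call ended after quantile normalization (0.09, adjusted p = 0.342) and without the scramble line (adjusted p = 0.0665). The pluripotency genes Pou5f1 (-0.94 ± 0.15) and Sox2 (-0.73 ± 0.11) and the glycolytic gene Pkm (-0.64 ± 0.06) fell furthest. Runx1 and Pax7 lay under the mean of 1 FPKM set for testing.

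Of 9 tested genes with Tudor domains, through which some proteins bind methylated arginine, 5 were called higher and 2 lower. Tdrd7 (1.181 ± 0.07), Tdrkh (0.79 ± 0.07) and Snd1 (0.44 ± 0.07) rose, and Phf20 (-0.41 ± 0.06) and Smn1 (-0.32 ± 0.06) fell. Without the scramble line the Smn1 call ended (adjusted p = 0.0529), and 3 of the 9 genes were higher and 1 lower. After median-of-ratios scaling 4 were higher and 4 lower, and the list's median was 0.20 as deposited and -0.09 after quantile normalization. Of the deiminases and candidate erasers, 3 of 6 were tested and Padi4 rose by 0.68 ± 0.13, a call that ended under quantile normalization (adjusted p = 0.0791); without the wild-type line 2 of the 3 were higher and 1 lower. Of the genes that break down free dimethylarginine, Ddah1 fell by 0.64 ± 0.14 and Ddah2 rose by 0.45 ± 0.12, and median-of-ratios scaling ended the Ddah2 call (adjusted p = 0.0521). Without the scramble line both calls ended, Ddah1 at an adjusted p of 0.0735 and Ddah2 at 0.0588.

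Among 9 genes of S-adenosylmethionine supply and turnover 3 fell and 1 rose; 1 fell when the scramble line was left out and 2 when the Carm1 shRNA line was. Mat2a, the synthetase of dividing cells, was 125, 121 and 154 FPKM with RA against 172, 171 and 192 FPKM with vehicle in the Carm1 shRNA, scramble and wild-type lines (-0.42 ± 0.07). Ahcy, which clears the by-product S-adenosylhomocysteine, fell by 0.34 ± 0.07 and the regulatory subunit gene Mat2b fell by 0.23 ± 0.06, while Ahcyl2 rose by 1.19 ± 0.15. The Ahcy call ended after quantile normalization (-0.18, adjusted p = 0.0539) and without the scramble line (adjusted p = 0.058). The Mat2b call ended on leaving out the scramble line (adjusted p = 0.0948) or the Carm1 shRNA line (adjusted p = 0.108). Of 5 further putative arginine methyltransferases Fbxo10 (0.76 ± 0.08) and Fbxo11 (0.38 ± 0.08) rose, and the Fbxo11 call ended without the scramble line (adjusted p = 0.0587). Prmt10, an older symbol of Prmt9 and a type II enzyme, did not pass, at 11.4, 11.8 and 10.9 FPKM with RA and 12.3, 12.4 and 12.1 FPKM with vehicle (-0.10 ± 0.06, limma adjusted p = 0.203). Both rescalings called it lower, median-of-ratios at -0.25 (adjusted p = 0.0164) and quantile normalization at -0.33 (adjusted p = 0.00716), and 2 of the 5 genes were lower under each.

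Of the 85 listed genes tested, 1, Yipf2, was called between Carm1 shRNA cells and both control lines (limma), against 0.517% of all genes.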

How the data were processed

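RNA was sequenced in 6 libraries as single-end 51-nucleotide reads from TruSeq RNA libraries, per the labels' protocols. The authors deposited FPKM values made with TopHat2 and Cufflinks on build mm9, per the submitters' processing notes; neither tool's version nor any scaling between libraries appears in the sources used here. The table held 20793 rows, and a second deposited copy differed in 0 values. Rows with a failed estimate (2) were dropped, and each repeated symbol (519 rows) was represented by its most abundant row, leaving 20460 genes. Coordinates are the table's, with 1 added to each start.

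The 11227 genes averaging 1 FPKM or more, all 8 members among them, were tested on log2(FPKM + 1), which understates changes of low genes, with limma 3.58.1 in R 4.3.3. The model was line plus treatment, with Benjamini-Hochberg adjustment over all genes tested and a threshold of 0.05. The line is the block because each line was measured under both treatments. A further model added the product of RA and the Carm1 shRNA line. The fit was tested on simulated data. Reads per gene were estimated from the FPKM, the estimated depth and GENCODE M21 transcript lengths, and cover counting error only. The members and lists were chosen with earlier results of these data known. Named genes were the 8 members, up to 3 genes per direction and list with the largest RA change past the threshold and the same sign in all 3 lines, listed genes called in a contrast of lines, overlapping genes, and the 5 genes most like Carm1, Prmt8 and Prmt2. Wdr77, Smarca4, Runx1, Pax7 and Prmt10 were named after their values were seen, and 1 gene that the rule names is not reported here. Alternatives covered the pseudocount, the filter, scaling, limma's trend, repeated symbols, the block and leaving out each library or line.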

Additional observations from a re-analysis of the deposited data

How the results depend on the processing

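The calls of the members with RA kept their direction under every alternative run. Members called higher numbered 1 without a filter on low values, where Prmt8 ended at adjusted p = 0.0511, and 2 under the others. Members called lower numbered 3 to 6. Without the line as a block (no replicate block) the fit gave 2 members higher and 3 lower, with Carm1 at an adjusted p of 0.755. The Carm1 call against the scramble line counted 0 members under no filter, under quantile normalization (adjusted p = 0.0539) and on leaving out single libraries (range 0 to 1). Against both control lines it counted 0 members without a filter and 0 to 1 on leaving out single libraries. Members higher in the scramble than in the wild-type line numbered 0 to 1 on leaving out single libraries; the 1 was Prmt2 (0.59, adjusted p = 0.049, without the wild-type vehicle library).

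Over all genes, the count for Carm1 shRNA against scramble was 2, and 5 at a pseudocount of 5, 0 without a filter, 9 at a mean of at least 5 FPKM, 0 after quantile normalization, 22 with limma's trend and 0 to 13 on leaving out libraries. The count for Carm1 shRNA against both control lines was 58, and 32 and 176 at pseudocounts of 0.1 and 5, 0 without a filter, 165 at a mean of at least 5 FPKM, 100 after median-of-ratios scaling, 35 after quantile normalization, 325 with the trend and 1 to 577 on leaving out libraries. The count for scramble against wild-type was 201, and 64 and 478 at those pseudocounts, 0 without a filter, 420 at the higher mean, 91 after quantile normalization, 853 with the trend and 1 to 565 on leaving out libraries. The difference in RA response called 1 gene with the trend and 0 otherwise. Higher genes made up 67.4% of the RA calls on deposited values, 50.2% with median-of-ratios factors and 43.7% with quantile normalization. Leaving out libraries reduces the residual degrees of freedom to 1; the causes of the other shifts were not tested. Leaving out a library would leave the difference in RA response no residual degrees of freedom, so it was not run. With 1 library per line and treatment, no error within a group exists.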

Other observations

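Of the 85 listed genes tested, 2 were called between the scramble and wild-type lines (limma), against 1.79% of all genes. Tdrd3, a reader of the methyl marks set by CARM1 and PRMT1, measured 11.1 FPKM in the Carm1 shRNA line, 10.2 FPKM in the scramble line and 6.66 FPKM in wild-type cells with RA, and 9.39, 8.80 and 5.71 FPKM with vehicle (scramble minus wild-type 0.55 on the log2 scale, limma adjusted p = 0.0431). Both shRNA lines were above the wild-type line under both treatments. Amd1, which turns S-adenosylmethionine toward polyamine synthesis, was 0.0314, 0.0467 and 7.13 FPKM with RA and 0.0453, 0.0623 and 14.6 FPKM with vehicle in the same order of lines (-3.42, limma adjusted p = 0.0179). In the expression table the span of Amd2 nearly coincides with that of Amd1, so how reads were divided between them is uncertain.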
